A study of Anopheles gambiae with 15 samples.

Results

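Among the sections of the larval gut of the malaria mosquito Anopheles gambiae, 183 of 16884 mosquito probe sets stood highest in the hindgut sample without standing clearly above whole larvae. They were chosen on the measured levels themselves. The mean of 3 arrays was taken per group, and the 4 section means of a probe set were sorted. The widest gap between neighbours in that order had to be at least 1 on the log2 scale and to lie between hindgut and the second section, and the hindgut mean could exceed the whole-larva mean by at most 0.5. In all, 863 probe sets peaked in hindgut by the gap criterion, and the other 680 exceeded whole larvae by more than that limit.

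The hindgut sample came from 4th instar larvae of the G3 strain, reared at 28 °C with no treatment named, and by the labels' dissection protocol it includes the Malpighian tubules. The sections set beside it were gastric caeca, anterior midgut and posterior midgut, and intact larvae of the same stage made up the whole-larva group. Each section array was made from pooled tissue of 1000 guts and each whole-larva array from a pool of 200 individuals, so single animals were not measured. Each group has 3 arrays that the labels describe as biological repeats, 15 in all, and the design asked which transcripts each section holds at a higher level than whole larvae. Values are RMA log2 expression values as deposited, 1 per probe set and array, where a probe set is a group of short oligonucleotides that reads 1 target.

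The insect hindgut arises from ectoderm and carries a cuticular lining and a muscle coat, unlike the secretory and absorptive midgut epithelium. It reclaims water and ions from the primary urine that the Malpighian tubules secrete. Cuticle, muscle and nerve also occur widely outside the gut, in body wall, tracheae and head. Whole larvae contain the gut, and no tissue outside it was profiled by itself. The data can therefore show that whole larvae held as much of a signal as hindgut, but not which tissue it came from. In bulk RNA, fewer cells of a type and less RNA per cell cannot be told apart. The deposited files give no gene for a probe set, and a RefSeq gene table (assembly idAnoGambNW_F1_1) matched 0 IDs. Probe sets therefore appear under their IDs, without names or functions.

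In hindgut the 183 probe sets had group means between 5.39 and 13.01. Their median was 7.88, against 5.02 for all mosquito probe sets in the same section. In the caeca their median was 5.91, in the anterior midgut 5.55 and in the posterior midgut 5.50. Whole larvae had a median of 8.20, above all sections. The lead of hindgut over the second section had a median of 1.62 on the log2 scale, or 3.08-fold. Its quartiles were 1.17 and 2.29, and the widest lead was 5.36. A lead of at least 2 was found for 64 probe sets, of at least 3 for 17 and of at least 4 for 2. All of these values were used in the choice and describe it.

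**Figure D1:**
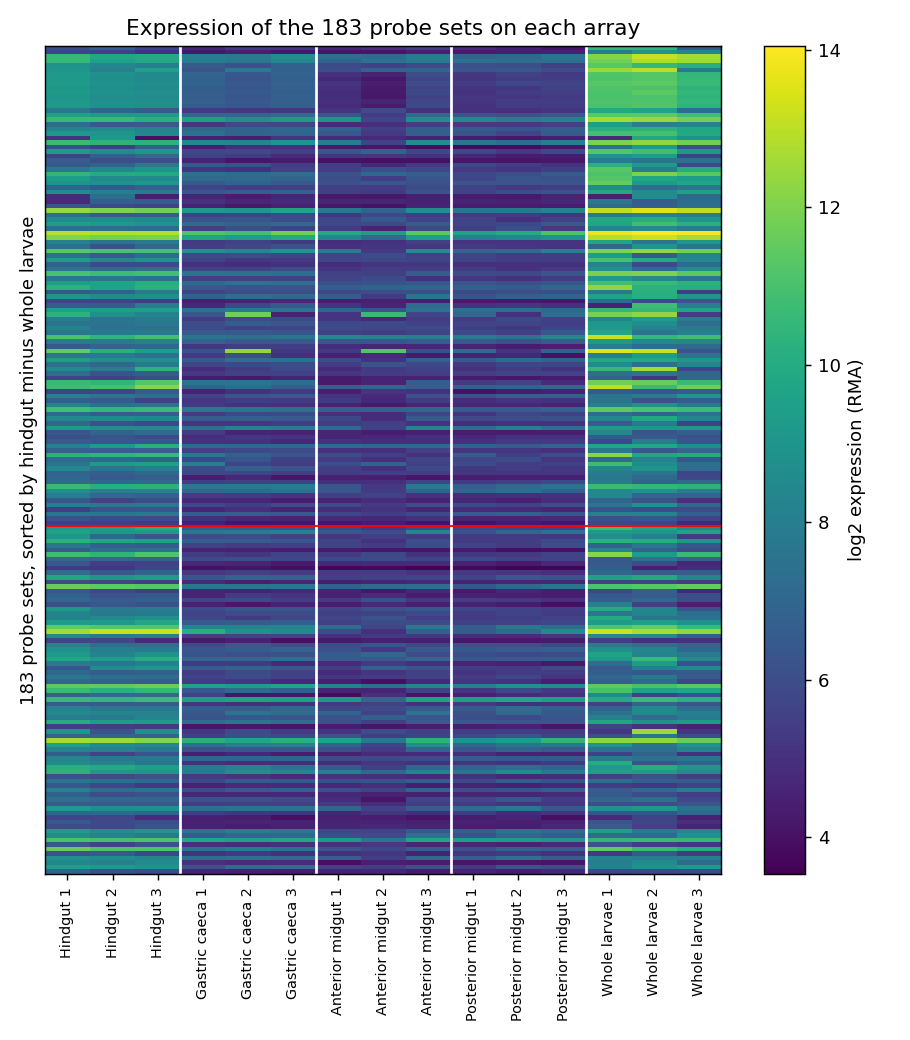
Each row is 1 of the 183 probe sets and each column 1 of 15 arrays, coloured by deposited log2 expression, with rows sorted by hindgut minus whole larvae. In the 106 rows above the red line the whole-larva mean exceeded the hindgut mean, and the caeca and midgut columns are dark in most rows.

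A background level, the 95th percentile of 290 probe sets whose IDs start with a number and the higher of 2 such levels, lay between 5.29 in whole larvae and 5.83 in the anterior midgut. All 183 exceeded it in hindgut and 180 did in whole larvae. In caeca 130 exceeded it, in posterior midgut 89 and in anterior midgut 68. For 57 probe sets the second section itself lay at or below this background, and for 53 all 3 other sections did. By a lower level, the same percentile of 4506 Pf probe sets, which lay between 3.96 and 4.10, all 183 were above background in caeca, and 181 were in each midgut section. How many of the low signals count as background thus depends on the level chosen. At the other end, 16 had a mean above 8 in the second section.

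The widest lead was that of Ag.3R.593.0_CDS_a_at. Hindgut arrays 1 to 3 read 10.79, 10.38 and 11.15. Caeca arrays read 5.36, 5.23 and 5.65, anterior midgut arrays 5.33, 5.86 and 5.04, and posterior midgut arrays 5.23, 5.29 and 5.66, while whole-larva arrays read 12.19, 9.31 and 10.65. The 3 other sections lay together near the background level, the hindgut arrays stood 41.0-fold above the highest of them by group mean, and the whole-larva arrays spread across a range of 2.88 log2 units that encloses the hindgut values. The next widest lead, 19.9-fold, was that of Ag.2L.1467.0_CDS_at. It read 10.73, 10.97 and 12.09 in hindgut and 13.00, 10.66 and 11.74 in whole larvae. All 9 arrays of the other sections lay between 6.71 and 7.24. In both probe sets whole-larva array 2 was the lowest of its group and array 1 the highest.

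Across the 183, all 3 hindgut arrays lay above all 9 arrays of the other sections for 173, where 13% of all mosquito probe sets did so. In a limma fit over all 15 arrays, 146 of them were higher in hindgut than in each other section, with an adjusted p under 0.05 and at least 2-fold in all 3 contrasts, where 4.82% of all mosquito probe sets passed. The rule used these contrasts, and nothing is read from the counts. Probe sets close to the limits were common. The narrowest lead inside was 1.005 and the widest outside 0.998. Within 0.1 of that limit lay 29 probe sets inside and 28 outside. At the whole-larva limit the nearest values were 0.499 inside and 0.501 outside, with 22 and 18 probe sets within 0.1 of it.

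The difference between hindgut and whole larvae ran from 0.50 down to -3.05, with a median of -0.22. The whole-larva mean was above the hindgut mean for 106 of the 183 (57.9%), against 56.8% of all mosquito probe sets. Another count that came to 106 was that of probe sets within 0.5 of the hindgut mean on either side. Whole larvae were higher by 0.5 to 1 for 34, by 1 to 2 for 30 and by more than 2 for 13. In limma 30 were called lower in hindgut than in whole larvae, where 4.05% of all mosquito probe sets were, with a median of 3.55-fold among the 30. The rule cut this contrast on its high side, so that calls could only be made on the low side, and all 3 whole-larva arrays lay above all 3 hindgut arrays for 38 (20.1% of all mosquito probe sets). Nothing is read from these counts. When values were quantile normalized again the median difference of the 183 was -0.49, and with array medians set equal it was -0.13. Whole larvae were above hindgut for 135 of them (73.8%, against 50.1% of all) on the quantile normalized scale and for 99 (54.1%, against 44.8%) with medians set equal. The share among the 183 was thus close to that among all probe sets on the deposited scale only.

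The largest difference was that of Ag.2L.872.0_UTR_a_at, which read 5.98, 6.66 and 5.73 in hindgut, against 10.49, 10.46 and 6.58 in whole larvae. It was 8.30-fold lower in hindgut (log2 difference -3.05). The difference rests on whole-larva arrays 1 and 2, since array 3 lay just below the highest hindgut array. Ag.3R.162.34_UTR_a_at read 5.67, 5.59 and 5.04 in hindgut, against 7.83, 9.0 and 8.41 in whole larvae. It was 7.89-fold lower in hindgut (log2 difference -2.98), and its groups did not overlap. Both were dim in hindgut and close to the limit on the gap, with leads of 1.01 and 1.07, and in each the 3 other sections lay at or below the higher background level.

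The 43 probe sets with whole larvae more than 1 above hindgut differed from the 106 within 0.5 of it in what the IDs show. These comparisons are descriptions, with no test. Of the 43, 26 (60.5%) belonged to a set of 2 or more of the 183 that share the leading part of their ID, against 11 of the 106 (10.4%). Of the 43, 36 (83.7%) carried the suffix a_at or s_at, which the maker gives to probe sets whose oligonucleotides match several transcripts, against 50 of the 106 (47.2%). Caeca exceeded posterior midgut by a median of 0.76 in the 43 and 0.26 in the 106. The median range across whole-larva arrays was 1.01 in the 43 and 1.29 in the 106, whereas a range of at least 2 occurred in 11 of the 43 (25.6%) and 21 of the 106 (19.8%). Both measures were highest in the 34 with whole larvae 0.5 to 1 above hindgut, with a median of 1.69 and 14 (41.2%) at 2 or more. Of the 43, 9 belong to the family Ag.2R.8.

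Several of the 183 may read the same or related transcripts, so they are not 183 separate observations. Taking IDs with the same arm field and the same first number as 1 family, the 183 fell into 153 families. No source used here defines these fields. Of these, 16 families held 2 or more of them, 46 probe sets together, and in 12 of the 16 every mosquito probe set of the family was a member. The largest, chosen after its values were seen, was Ag.2R.8 with 9 of 9 probe sets, each with whole larvae 1.14 to 2.13 above hindgut and a hindgut lead of 2.11 to 2.76. Ag.3R.162 followed with 5 of 5, at 1.84 to 2.98 above hindgut and leads of 1.07 to 1.96. Over the 15 arrays, pairs within a family correlated at a median r of 0.988 (68 pairs) and pairs of different families at 0.836 (16585 pairs). All pairs share the arrays, and the rule fixed much of the profile of both kinds. Counted once per family by the median of its members, whole larvae were above hindgut in 80 of 153 families (52.3%), and the median difference was -0.04.

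Of the 183, 74 (40.4%) had the suffix a_at and 32 (17.5%) s_at, against 19.7% and 8.14% of all mosquito probe sets. The 74 came from 52 families and the 32 from 30. Among the 680 hindgut-peaking probe sets above whole larvae the shares were 31.9% and 11.3%. IDs with the arm field 2R made up 38.8% of the 183 (71), 27.9% of the 680 and 26.3% of all. For 2L the shares were 20.2%, 22.5% and 20.3%, for 3R 19.1%, 22.1% and 18.8%, and for X 7.65%, 5.74% and 8.31%. For 3L they were 9.84%, 15.7% and 14.8%, and for IDs marked UNKN 4.37%, 6.03% and 11.5%. Of the 71 on 2R, 24 were among the 43 with whole larvae more than 1 above hindgut, and 9 were the members of Ag.2R.8. All these shares count probe sets, so families with several members weigh more. Shares by family were not computed.

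Whole-larva pools differed from each other at these probe sets. The difference between the highest and the lowest whole-larva array had a median of 1.20 log2 units over the 183, against 0.71 over the 680 and 0.37 over all mosquito probe sets. It was at least 1 for 117 (63.9%, against 31.5% and 13.8%) and at least 2 for 46 (25.1%, against 6.03% and 2.97%). The rule used the mean of these same arrays, so 1 high pool could bring a probe set into the 183 rather than the 680. The sets also differ in signal, with median whole-larva levels of 8.20, 6.13 and 5.14. How much of the wider range comes from the choice or the signal level was not tested. Array 3 was the lowest of the 3 for 111 (320 of the 680 and 5381 of all 16884) and the highest for 15 (108 and 5971). Array 1 was the highest for 87 (238 and 5877) and array 2 for 81 (334 and 5036). Medians over the 183 were 8.57, 8.54 and 7.82 on whole-larva arrays 1 to 3, where all mosquito probe sets had medians of 5.14, 5.12 and 5.09. The within-group SD had a median of 0.30 in hindgut and 0.63 in whole larvae over the 183, and of 0.15 and 0.19 over all.

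Read against single whole-larva arrays, the hindgut mean was at most 0.5 above the array for 156 probe sets with array 1, 154 with array 2 and 117 with array 3. Only 87 of the 183 met the limit in each of the 3 arrays. For 45 array 3 alone broke it, for 13 array 2 alone, for 12 array 1 alone, and for 26 a pair of arrays did. Left out in turn, whole-larva array 3 moved the number chosen most of the 15 arrays, to 211, of which 173 were among the 183. Hindgut arrays were closer together, with a median range of 0.58 and a range of at least 1 for 32 probe sets, of which 28 also had a whole-larva range of at least 1. Hindgut array 1 was the highest of its group for 120 of the 183, against 415 of the 680 and 6029 of all 16884. Medians over the 183 were 8.15, 7.78 and 7.84 on hindgut arrays 1 to 3.

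**Figure D2:**
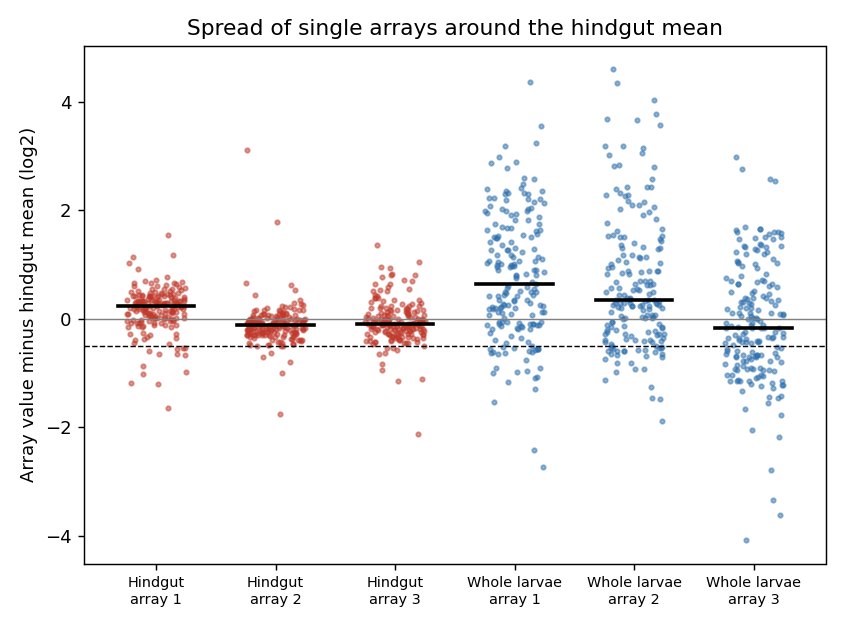
Each point is 1 of the 183 probe sets on 1 array, as its log2 value minus the mean of the 3 hindgut arrays, and black bars are medians. The 3 hindgut arrays cluster around 0, whereas whole-larva arrays spread widely and array 3 sits lower than arrays 1 and 2; the dashed line marks 0.5 below the hindgut mean.

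The pattern was also read in arrays that had no part in the choice. The rule was applied to the arrays of 2 replicate numbers, and the probe sets picked were read on the 5 arrays of the remaining number. With number 1 left out, 136 were picked, and 90 (66.2%) had the left-out hindgut array at least 1 above each other section array and at most 0.5 above the whole-larva array, where 1.82% of all mosquito probe sets did. With number 2 left out it was 76 of 174 (43.7%, against 0.912%), and with number 3 left out 76 of 197 (38.6%, against 0.699%). The hindgut lead on its own recurred in 88.2%, 59.2% and 71.1% of the picks, against 7.83%, 3.99% and 5.01% of all. The limit against whole larvae recurred in 76.5%, 78.2% and 61.9% of them. Of the other hindgut-peaking probe sets, those over the limit in the arrays used for the choice, 9.39%, 17.4% and 7.66% met it in the left-out arrays. Of all mosquito probe sets, most of which have no hindgut lead, 79.6%, 83.4% and 81.4% met it.

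The order of the 3 lower sections was not set by the rule, which only kept their gaps smaller than that of hindgut. Gastric caeca were the second section for 133 of the 183 (72.7%), anterior midgut for 29 and posterior midgut for 21. Among the 680 caeca were second for 47.8% and posterior midgut for 36.0%. Of all mosquito probe sets, 28.0% had caeca as the highest of these 3 sections and 26.7% posterior midgut. Caeca exceeded posterior midgut by a median of 0.34, with the higher mean in caeca for 152 of 183 (83.1%), where the median of all mosquito probe sets was -0.02 and 45.2% were higher in caeca. Among the 680 the median was 0.05 and 55.9% were higher in caeca. All 3 caeca arrays lay above all 3 posterior midgut arrays for 85 probe sets (46.4%, against 9.35% of all). They lay below them for 2 (1.09%, against 9.48% of all). Counted by family, caeca were higher in 125 of 153. On the values quantile normalized again caeca were higher for 150 of the 183, and with array medians set equal for 156. Only 89 of the 183 exceeded the higher background level in posterior midgut, and for 53 all 3 lower sections lay at or below it. For such probe sets the order is read from signals not above that level.

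In limma without a replicate block, 10 of the 183 were called higher in caeca than in posterior midgut, where 1.68% of all mosquito probe sets were. None of the 183 was called lower, where 0.77% of all were. The 10 came from 5 families and were 2.04- to 4.59-fold higher, but for 6 of them the posterior midgut mean was at or below the higher background level, so that their folds are not exact. By the dissection protocol the sections of a repeat came from the same larvae. Same-numbered arrays of these 2 groups deviated together, but so did those of caeca and whole larvae, which are separate samples. With the replicate number as a block 6 were called. After another quantile normalization 3 were called, and leaving out any 1 array of either group left 2 to 6. The count of calls is therefore less settled than the direction of the means. Ag.2R.300.0_CDS_a_at is among the 10. It read 7.53, 7.45 and 7.34 in caeca, against 5.92, 5.85 and 6.32 in posterior midgut, 2.66-fold (log2 difference 1.41 ± 0.25, SE, limma adjusted p = 0.0059 without the block and 0.012 with it). In hindgut it stood at 10.88 ± 0.14 and in whole larvae at 11.78 ± 0.35 (SD, n = 3 each).

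Caeca exceeded anterior midgut by a median of 0.36 over the 183 (-0.05 over all mosquito probe sets). The caeca mean was higher for 146, or 79.8%, where 44.1% of all were. Only 68 of the 183 exceeded the higher background level in anterior midgut. The 680 hindgut-peaking probe sets above whole larvae had a median of 0.27 and were higher in caeca for 70.3%. All 3 caeca arrays lay above all 3 anterior midgut arrays for 66 of the 183 (36.1%, against 12.3% of all). They lay below them for 3 (1.64%, against 14.3% of all). In limma 20 were called higher in caeca, where 4% of all mosquito probe sets were, and 0 were called lower, where 0.628% were. They came from 12 families and were 2.06- to 9.81-fold higher, and for 10 of them the anterior midgut mean was at or below the higher background level. Without anterior midgut array 3, 43 were called, and 10 were in a fit of only these 2 groups. Caeca arrays were used in both comparisons, so the counts against anterior and posterior midgut are not separate results. Anterior midgut arrays were also more scattered, with a median SD of 0.35 over the 183 against 0.20 in caeca. The SD over all mosquito probe sets was 1.40 on anterior midgut array 2, below the 1.59 to 1.85 of the remaining arrays.

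**Figure D3:**
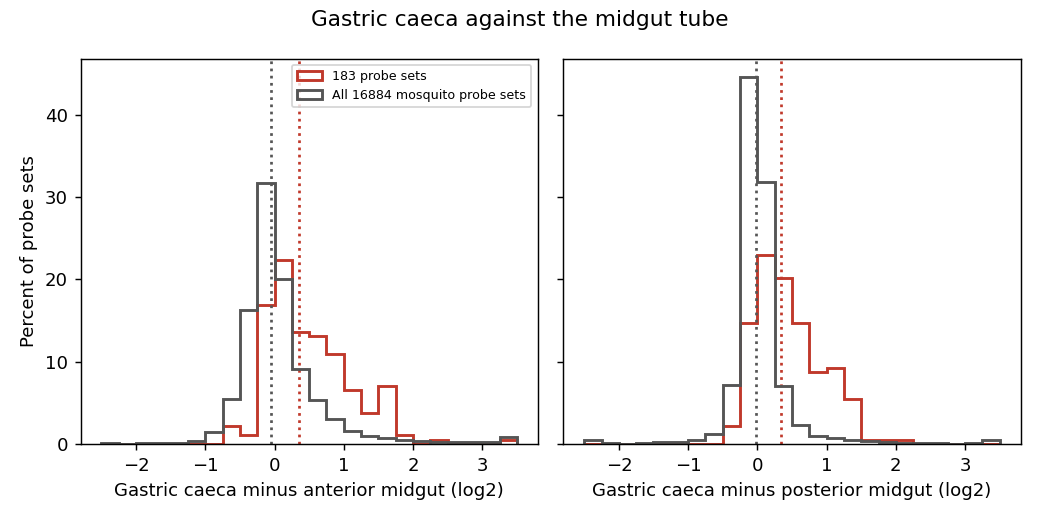
Percent of probe sets (y axis) by caeca minus anterior midgut (left) and caeca minus posterior midgut (right) group means in log2 units, for the 183 probe sets in red and all 16884 in grey, with values beyond the axis placed in the end bins. Dotted lines are medians, 0.36 against -0.05 on the left and 0.34 against -0.02 on the right, and the red distributions lie to the right of the grey ones.

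Ag.3R.282.1_a_at had the largest caeca excess over anterior midgut. It read 10.12, 8.87 and 8.54 in caeca, against 5.95, 4.93 and 6.76 in anterior midgut, 9.81-fold (log2 difference 3.30 ± 0.55, SE; limma adjusted p = 0.0019). It descended from 13.01 ± 0.34 in hindgut to 9.18 ± 0.84 in caeca and 7.42 ± 0.95 in posterior midgut, and whole larvae stood at 12.79 ± 0.48 (SD, n = 3 each). Ag.2R.450.4_at read 7.59, 7.55 and 7.27 in caeca, against 4.28, 4.62 and 6.60 in anterior midgut and 5.41, 5.63 and 4.79 in posterior midgut. It was 4.95-fold above anterior midgut (2.31 ± 0.51, SE; limma adjusted p = 0.015) and 4.59-fold above posterior midgut (2.20 ± 0.51, SE; limma adjusted p = 0.035). Its means of 5.17 in anterior and 5.27 in posterior midgut lie below the higher background level of those sections, so both folds are taken over a signal not above it. Its call against posterior midgut was lost with the replicate block, after another quantile normalization and without any single array of the 2 groups. Its call against anterior midgut was lost when caeca array 1 or 2 or anterior midgut array 1 or 2 was left out, and in a fit of only those 2 groups.

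Between anterior and posterior midgut the median difference of the 183 was -0.03, and anterior midgut was higher for 85 of them. In limma 0 of the 183 were called, where 3.23% of all mosquito probe sets were, and 9 had an unadjusted p under 0.05. Limma with array weights called 6, all lower in anterior midgut, and without anterior midgut array 3 there were 8, also all lower.

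Caeca, anterior and posterior midgut were each called lower than whole larvae for 136 of the 183, where 3.1% of all mosquito probe sets were. The rule placed whole larvae at least 0.5 above the second section, so nothing is read from this count.

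Probe sets with UTR in the ID made up 33 of the 183 (18.0%), against 5.0% of the 680 hindgut-peaking probe sets above whole larvae and 4.68% of all mosquito probe sets. Those with CDS in the ID made up 123 (67.2%, against 80.7% and 83.3%), and 27 carried neither. These shares too count probe sets and not families. Labelling of RNA from the 3' end favours targets near that end, more so when RNA is short, and control probe sets that read the 3' and the 5' part of actin and Gapdh measure it. Their 3' minus 5' difference lay between -0.22 and 0.26 on the hindgut arrays, against 0.78 to 1.08 on the whole-larva arrays, and between 0.63 and 1.12 on the arrays of the other sections. It thus separates hindgut from all other groups, and its part in the choice of the 183 was not tested.

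For 24 of the 33 UTR probe sets a CDS probe set with the same ID stem was present. The CDS partner had a higher hindgut minus whole larvae difference than the UTR member in 21 of 24 pairs. The median was -0.55 for the UTR members and 0.25 for their CDS partners, and 10 partners exceeded the limit of 0.5 while 9 were themselves among the 183. Since UTR members were chosen for a low difference, part of this is set by the choice. Over all 671 stems with both kinds, the CDS difference was higher in 78.7%, by a median of 0.39. In the 14 pairs that start from a CDS member, the UTR partner was higher in 4, with medians of -1.15 for the UTR partners and -0.74 for the CDS members. Of these 14 pairs, 9 are pairs in which both probe sets are among the 183, already counted among the 24. In the other 5 pairs the UTR partner was higher in 2. The lead of hindgut over the other sections was at least 1 in 17 of the 24 CDS partners of UTR members and above 0 in 23.

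**Figure D4:**
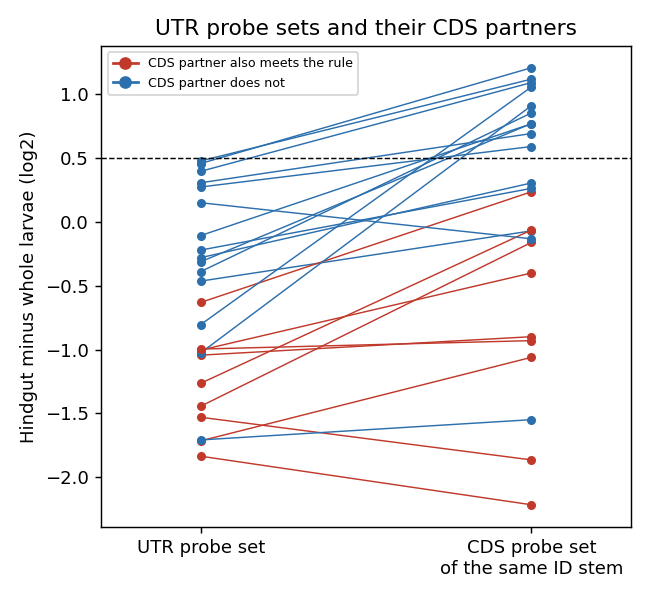
Hindgut minus whole-larva mean (log2) for 24 UTR probe sets of the 183 (left) and the CDS probe set of the same ID stem (right), joined by lines. Of the CDS partners, 9 also met the rule (red) and 15 did not (blue), and 10 lay above the dashed limit at 0.5.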

How the data were processed

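Values are log2 expression values that the authors deposited, produced by RMA, which the submitters' processing notes name without version or settings. They ran from 3.13 to 14.4 over 15 arrays of 5 groups. Their range fits a log2 scale. Mosquito probe sets are those with IDs starting with Ag. The members and lists were chosen with earlier results of these data known. Limma 3.58.1 fitted group means over the 15 arrays (R 4.3.3; lmFit, eBayes, no block), with Benjamini-Hochberg adjustment over 16884 probe sets. A call needs an adjusted p under 0.05 and 2-fold. The fit was tested on simulated data. Named probe sets are, per comparison, the 2 extremes in each direction that were called and whose arrays do not overlap, and the 2 extremes of the lead and of the whole-larva difference. The sections of a repeat come from the same larvae by the labels' protocol, if array numbers mark the repeats. After group means were subtracted, arrays with the same number correlated at 0.30 to 0.35 between caeca and posterior midgut. The main fit did not pair them, and the replicate block was an alternative. Between anterior and posterior midgut the correlations were 0.262, -0.344 and 0.007. Between caeca and anterior midgut 1 of 3 correlations was below 0.1. Between caeca and whole larvae, a group of intact animals, they were 0.27 to 0.35, and between hindgut and caeca -0.19 to -0.007. The correlations therefore do not by themselves show which arrays share larvae. Alternatives were other scalings, priors, weights, filters, limits, a replicate block and each array left out. The number of arrays limits the precision. P-values set a difference of means against the spread between these pools. In the main fit that spread is shared by all 5 groups and is not that of the 2 groups compared alone.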

Additional observations from a re-analysis of the deposited data

How the results depend on the processing

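The number of probe sets chosen was 167 to 211 when 1 array was left out, 150 after another quantile normalization (127 of them among the 183), 101 with a gap of at least 1.5 and 106 with hindgut at most at the whole-larva mean. The share with whole larvae above hindgut was 55.7% to 65.4% with 1 array left out (65.4% without whole-larva array 3) and 66% after another quantile normalization. It was 92.0% among those whose 3 whole-larva arrays each met the limit, a setting added after seeing the data. That setting selects on the difference being counted, so the rise follows from the choice. With hindgut at most at the whole-larva mean the share is fixed by construction and was not computed. The share of UTR IDs was 16.5% to 18.4% with 1 array left out. Over the 3 sets of picks pooled, 242 of 507 (47.7%) kept the pattern in left-out arrays, and 68.8% did with any lead accepted. The sets overlap, so a probe set can be counted more than once, and the single sets ran from 38.6% to 66.2%.

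Calls between caeca and anterior midgut numbered 20, with 16 to 43 when 1 array was left out, 10 in a fit of only these groups, 13 after another quantile normalization, 38 with array weights and 12 counted by family. Between caeca and posterior midgut they numbered 10, with 2 to 6 when 1 array was left out, 6 with the replicate block, 21 in a fit of only these groups, 3 after another quantile normalization (2 with the block too), 6 with a trended and robust prior, 29 with array weights and 5 by family. Counts by family and the normalization with the block were added after seeing the data. Every call in these settings was higher in caeca. Between anterior and posterior midgut there were 0 to 8 with 1 array left out and 6 with array weights. Calls lower in hindgut than in whole larvae numbered 21 to 42 with 1 array left out. They numbered 43 after another quantile normalization, 25 with array medians set equal, 29 by the methods' t-test and 16 after its Benjamini-Hochberg adjustment. Calls higher in hindgut than in each other section were 106 to 148 with 1 array left out and 98 to 164 in the other settings. Calls of the 3 other sections below whole larvae were 119 to 147 with 1 array left out and 94 to 145 in the other settings. The replicate block changed no other count by over 1.5 times. The cause of these changes was not tested.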

Other observations

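The same rule was met by 1 of the 937 probe sets whose IDs are sequence accessions (0.107%), against 1.08% of the mosquito probe sets, and by 0 of the 4506 Pf, 290 number and 144 maker control probe sets.

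The widest ranges among whole-larva arrays, given here for 2 probe sets chosen after their values were seen, came from single pools. Ag.3R.118.0_CDS_s_at read 9.01, 6.22 and 8.69 in hindgut, against 5.24, 12.57 and 5.19 in whole larvae, so that only pool 2 placed it within the limit. Ag.UNKN.2433.0_s_at read 11.51, 10.12 and 9.39 in hindgut and 13.58, 13.15 and 6.25 in whole larvae. Outside these groups it was high on caeca array 2 (12.31) and anterior midgut array 2 (11.25), while the other 7 arrays of caeca and midgut lay between 5.11 and 7.26. Of the 46 probe sets with a whole-larva range of at least 2, array 1 was the highest for 30, and array 3 the lowest for 26 and array 2 for 14.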
